A study of Rattus norvegicus with 8 samples.

Results

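The 8 genes described here encode the core of the presynaptic fusion machine and its partners: syntaxin 1A (Stx1a), SNAP-25 (Snap25), VAMP1 and VAMP2 (Vamp1, Vamp2), the disassembly factors NSF (Nsf) and beta-SNAP (Napb), and complexins 1 and 2 (Cplx1, Cplx2). They were chosen by name, are 8 of the 28909 gene symbols of the count table, and all passed the filter of more than 20 reads in at least 2 libraries, which kept 14309 genes. Hippocampal neurons of Sprague-Dawley rat embryos were grown on porous filter inserts, so that the somata stayed on the upper side while processes grew through to the lower side. The cultures received 100 μM picrotoxin (PTX), an antagonist of GABA-A receptors, for 48 h from 18 to 20 days in vitro, or vehicle alone as control. Ribosome-depleted total RNA of each compartment was sequenced in 4 conditions, somata control, somata PTX, processes control and processes PTX, with 2 libraries per condition and 8 in all. The cultures were not sorted by cell type, and no source used here says whether the libraries of a condition came from separate dissections, so the p-values measure the spread between these libraries.

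Neurotransmitter release depends on a SNARE complex, in which VAMP (also called synaptobrevin) on the vesicle zips together with syntaxin 1 and SNAP-25 on the plasma membrane. Complexins bind the partly assembled complex and hold it ready for the calcium signal. After fusion, the ATPase NSF, recruited by SNAP proteins such as beta-SNAP, takes the complex apart so that its subunits can be used again. PTX blocks synaptic inhibition, and its prolonged presence is a standard way to raise network activity and to induce homeostatic scaling of synapses.

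Library totals ranged from 12290890 to 18455662 counts, of which genes outside the mitochondrial genome received 9517542 to 11227599 in somata and 4702054 to 5491237 in processes. The remainder were mostly 2 mitochondrial rRNAs, which took 21.1% to 24.8% of the counts of somata and 64.9% to 68.3% of those of processes. Levels are therefore given as CPM, counts per 1000000 after TMM scaling, which sets the bulk of genes equal between libraries. No transcript lengths were used, so that levels are compared only within a gene. Summed levels of 5 neuronal markers were 1241 to 1485 CPM in somata and 3670 to 5115 CPM in processes, most of it Map2, a dendritic mRNA. Tubb3 was lower in processes of control cultures (−0.57 on the log2 scale). In single tests on control cultures, 2 of the 5 (Map2 and Rbfox3) were higher in processes and 1 lower, with a median of −0.29. Of all tested genes, 25.8% were higher and 21.9% lower. Those of 8 astrocyte markers were 3038 to 4342 and 11171 to 14634 CPM, and most of the sum in processes was Gfap. Tested singly in control cultures, 4 of the 8 were higher in processes and 2 lower, against 25.8% and 21.9% of all tested genes. Microglial markers, 6 of 7 in the table, summed to at most 2.12 CPM in any library, and none of them passed the filter. As this was bulk RNA, a smaller share of a cell type and less RNA per cell cannot be told apart.

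Stretches upstream of the start sites in RefSeq (GRCr8, a later build than the one used for mapping) are shown for Vamp1 and Cplx1, which hold a cyclic AMP response element core before a start at the outer end of the gene, since CREB is a classic activity-dependent factor. RefSeq's promoter table had an entry for 7 of the 8 members, and for 3 of them (Stx1a, Vamp2 and Cplx2) its start lies inside the gene's span, so that no stretch of these is shown. Within the 250 bases before the start, the full palindrome TGACGTCA was found on either strand for Vamp1, as in 1.59% of 33469 rat promoters. The shorter core TGACG, which overlaps the palindrome on both strands, was found for Vamp1, Vamp2 and Cplx1, as in 18.2% of promoters, and the Sp1-type box GGGCGG for all 7, as in 30.5%. Capitals mark the TGACG core or its reverse complement in the stretches of Vamp1 (chr4:159698803-159698850, plus strand) and Cplx1 (chr14:1329030-1329072, plus strand).
Vamp1: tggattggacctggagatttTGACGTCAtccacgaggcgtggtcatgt
Cplx1: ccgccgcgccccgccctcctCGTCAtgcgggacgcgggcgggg
The match is a description of letters, and neither gene passed the test with PTX in the comparison described next, unless the replicate number entered the fit, when Cplx1 did.

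The first comparison asked which members changed with PTX. Cplx2 fell in both compartments, and Napb fell when the 2 compartments were averaged, whereas none of the 4 SNAREs passed the test. Cplx2 stood at 244.0 and 242.0 CPM in somata control libraries and at 156.8 and 157.0 CPM with PTX. In processes it stood at 1026 and 774.7 CPM in control and at 583.4 and 509.2 CPM with PTX. The PTX libraries were below the controls in both compartments, without overlap. With 2 libraries on each side groups can separate without an effect, and the share of all genes that did so is not given here. The fall was −0.63 (SE 0.14) on the log2 scale in somata, to 64.6% of control, and −0.72 (SE 0.14) in processes, to 60.7% of control, with adjusted p-values of 0.0379 and 0.0230 in edgeR's quasi-likelihood test. Averaged over compartments it was −0.68 (95% interval −0.90 to −0.45, adjusted p = 0.0023 in edgeR). This average, like the comparisons between compartments, took the libraries of the 2 compartments as independent. No source used here says whether they came from the same inserts. Within replicate number 1 the difference of Cplx2 was −0.64 in somata and −0.81 in processes, and within number 2 it was −0.62 and −0.61. Each call within a compartment rested on few libraries. Leaving out any 1 of the 4 somata libraries ended the call in somata with the value between −0.65 and −0.63, and leaving out processes control replicate 1 or either processes PTX library ended the call in processes with the value between −0.82 and −0.50. A fit to the 4 process libraries alone also ended it, at −0.70 (edgeR adjusted p = 0.0740), while the averaged call held whichever library was left out.

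**Figure D1:**
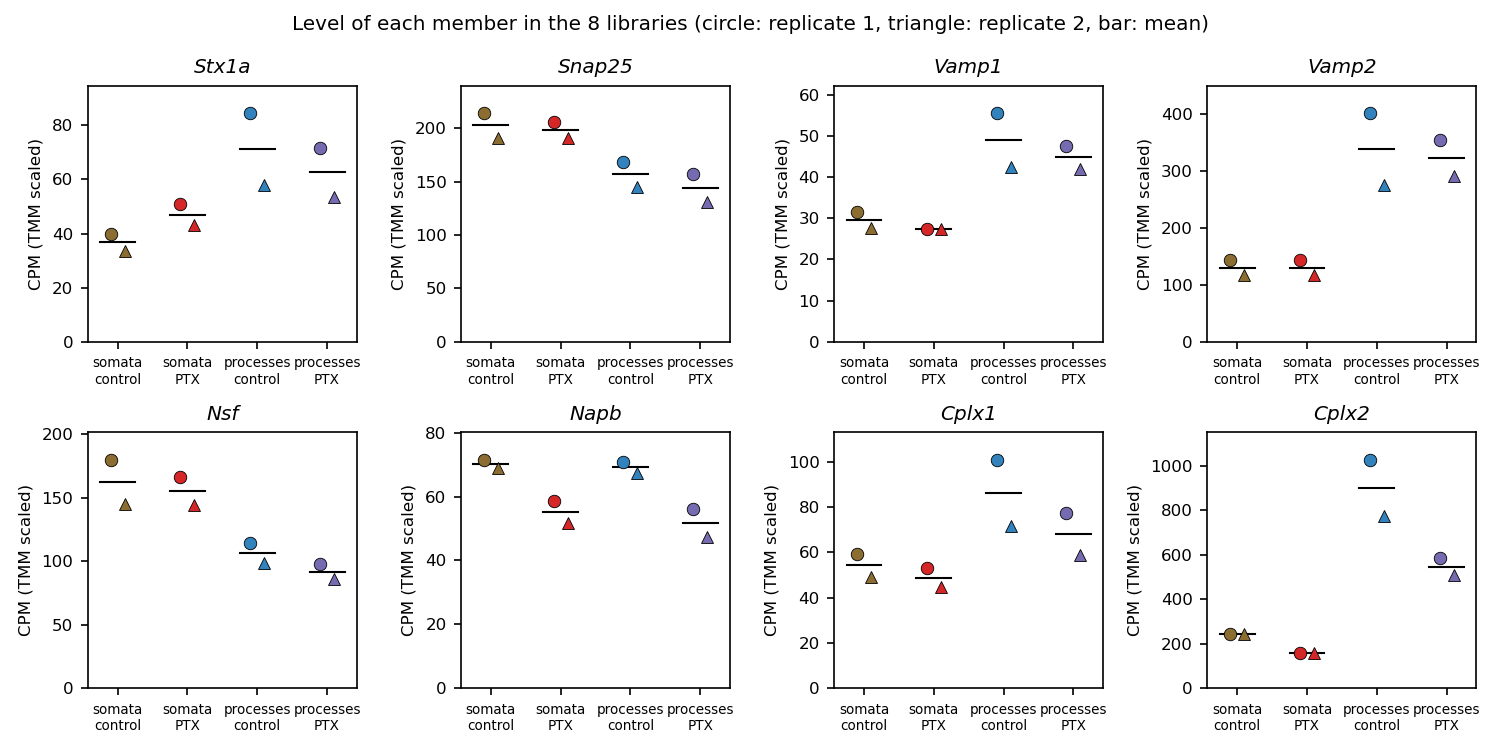
Level of each member in CPM (linear axis from 0) in the 8 libraries, with circles for replicate 1, triangles for replicate 2 and a bar for the mean of each condition. Cplx2 falls from 244.0 and 242.0 to 156.8 and 157.0 CPM in somata with PTX, and Vamp2 lies between 117.2 and 143.7 CPM in somata and between 275.0 and 401.0 CPM in processes on this TMM scale, an order that turns with the library size alone.

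Cplx1, the other neuronal complexin, stood at 59.5 and 49.2 CPM in somata control libraries and at 53.1 and 44.6 CPM with PTX. In processes the values were 100.8 and 71.5 CPM against 77.2 and 58.7 CPM. Its groups overlapped in both compartments. The differences of −0.15 (SE 0.18) in somata and −0.35 (SE 0.19) in processes did not pass the test, with adjusted p-values of 0.792 and 0.398 in edgeR. When the fit took the replicate number as a block (the replicate block from here on), the value in processes was −0.34 (edgeR adjusted p = 0.0236) and that averaged over compartments −0.25 (adjusted p = 0.00863, against 0.287 without the block).

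Napb encodes a brain-enriched SNAP, the adaptor that brings NSF to the spent complex. It stood at 71.4 and 69.0 CPM in somata control and at 58.7 and 51.7 CPM with PTX. In processes it stood at 70.9 and 67.4 CPM in control and at 56.1 and 47.3 CPM with PTX. Both PTX libraries were below both controls in each compartment. The averaged change was −0.38 (SE 0.08), to 76.6% of control (adjusted p = 0.0159 in edgeR, with the libraries of the compartments taken as independent). Taken singly, the values of −0.35 (SE 0.12) in somata and −0.42 (SE 0.12) in processes did not pass the threshold, with adjusted p-values of 0.154 and 0.0943 in edgeR. With the replicate block these became 0.00733 and 0.00504, and with the likelihood ratio test that in processes was 0.0468. The averaged call ended without somata control replicate 1, somata PTX replicate 2, processes control replicate 1 or processes PTX replicate 2, with values between −0.37 and −0.32 (edgeR adjusted p from 0.0543 to 0.0649).

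Nsf, the ATPase itself, was at 179.7 and 145.0 CPM in somata control and at 166.4 and 144.5 CPM with PTX. In processes it was at 114.2 and 98.8 CPM against 97.7 and 86.0 CPM, also without overlap. Its differences of −0.06 (95% interval −0.37 to 0.24) and −0.21 (−0.53 to 0.10) did not pass the test.

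Stx1a, the plasma membrane syntaxin of synapses, was at 39.8 and 33.7 CPM in somata control and at 50.8 and 43.3 CPM with PTX, without overlap. In processes the direction was the other, from 84.4 and 58.1 CPM to 71.8 and 53.4 CPM, with overlapping groups. The value in somata was 0.36 (95% interval −0.06 to 0.77) and did not pass the test (adjusted p = 0.417 in edgeR), but the difference was 0.35 and 0.36 within replicate numbers 1 and 2, and with the replicate block the adjusted p was 0.0120. The value in processes was −0.19 (−0.62 to 0.24).

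Snap25 supplies the other plasma membrane strands of the complex. It was at 213.9 and 191.3 CPM in somata control and at 205.6 and 191.2 CPM with PTX. In processes it was at 168.3 and 145.4 CPM against 157.5 and 131.1 CPM. The differences of −0.03 (95% interval −0.31 to 0.25) and −0.12 (−0.41 to 0.17) lay within the spread of the libraries. RefSeq's gene table places 2 long non-coding RNA genes over Snap25 and 2 over Cplx2, and reads from such overlaps cannot be told apart without the strand setting of the counting, which is not given in the sources used here.

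The vesicle SNAREs did not pass the test with PTX either. Vamp2, the main VAMP of hippocampal synapses, was at 143.7 and 117.2 CPM in somata control and at 143.0 and 117.8 CPM with PTX, a difference of 0.00 (95% interval −0.42 to 0.42). In processes it was at 401.0 and 275.0 CPM against 354.9 and 291.7 CPM, a difference of −0.06 (−0.48 to 0.35). Vamp1 was at 31.54 and 27.50 CPM in somata control and at 27.47 and 27.31 CPM with PTX, without overlap. In processes it was at 55.4 and 42.4 against 47.5 and 41.9 CPM. Its differences of −0.11 (−0.42 to 0.20) in somata and −0.13 (−0.45 to 0.19) in processes did not pass the test. Averaged over compartments, Vamp2 differed by −0.03 (−0.33 to 0.26). The averaged interval of Napb, −0.57 to −0.20, overlapped with that of Vamp2, and the difference between these genes was not tested.

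**Figure D2:**
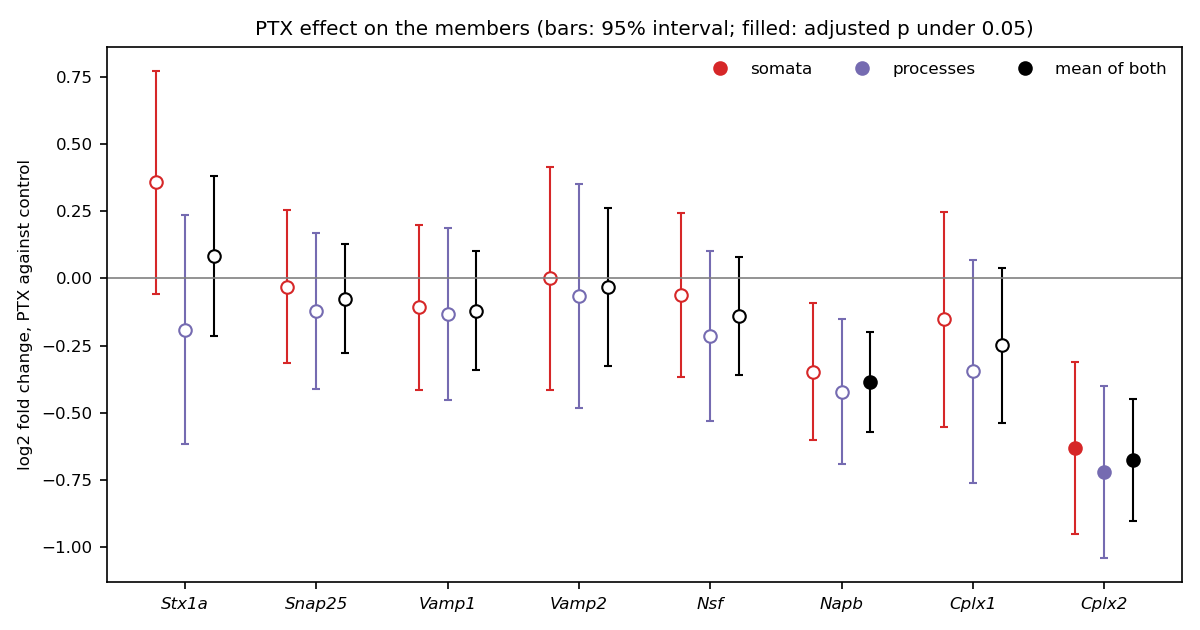
Log2 fold change of each member with PTX against control in somata, in processes and averaged over both, with 95% intervals as bars. Filled symbols have an edgeR adjusted p under 0.05: Cplx2 at −0.63, −0.72 and −0.68, and Napb at −0.38 in the average.

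In counts, none of the 8 members rose and 1 fell in somata, where 2.09% of the 14309 tested genes rose and 1.5% fell. In processes none rose and 1 fell, against 1.64% and 2.1% of all genes. In the average none rose and 2 fell, against 5% and 5%. The median over the members was −0.08 in somata, −0.20 in processes and −0.13 in the average, where the median of all tested genes was −0.01. With the replicate block 3 members passed in somata (1 higher, 2 lower, where 7.21% and 6.79% of all genes were), 3 in processes and 3 in the average (all lower, where 6.09% and 10.9% were), and the genes called among all tested numbered 2002 in place of 513 for somata and 1601 in place of 535 for processes. Without a scaling factor on the library size, the split of all calls moved from 299 higher and 214 lower to 351 and 140 in somata, and from 716 and 715 to 779 and 481 in the average, and the 8 members kept their calls.

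Markers of cell types moved over the same libraries. Summed over 6 markers of excitatory neurons, the level was 426 to 444 CPM in somata control and 282 to 305 CPM with PTX, and 732 to 980 against 515 to 517 CPM in processes. In the average 4 of these 6 fell (Neurod6, Camk2a, Tbr1 and Neurod2) and 1 rose (Slc17a6), against 5% and 5% of all tested genes. With the block 4 fell and 2 rose, against 10.9% and 10.1%. Slc17a7 rose in processes (0.73) and was at −0.33 in somata, which did not pass. Summed over 10 markers of GABAergic neurons, the level was 248 to 352 CPM in somata control and 424 to 559 CPM with PTX. In processes it was 139 to 181 against 223 to 291 CPM. In the average 2 of the 8 tested (Gad1 and Gad2) rose, against 5% of all tested genes. Over the 8, the averaged value was positive for 7 and negative for 1 (Dlx1), with a median of 0.49. With the block 4 of the 8 passed as higher and 1 as lower, against 10.1% and 10.9% of all tested genes. In somata Slc32a1, the vesicular GABA transporter, did not follow, at 25.4 to 32.0 CPM in control and 24.4 to 31.9 CPM with PTX. Dlx1 was at 6.82 to 9.39 CPM in somata control and 5.29 to 6.87 CPM with PTX. Its average of −0.48 did not pass without the block and passed with it (edgeR adjusted p = 0.0247). The sum of 5 neuronal markers was 1348 to 1485 CPM in somata control and 1241 to 1336 CPM with PTX, and 4838 to 5115 against 3670 to 4324 CPM in processes. Map2 made up most of that sum and did not pass in the average (−0.25). Rbfox3 (−0.60) and Tubb3 (−0.45) fell, 2 of the 5, against 5% of all tested genes. Nefl (0.13) and Eno2 (0.10) had positive values that did not pass. With the block 3 of the 5 fell and none rose, against 10.9% and 10.1%. The part of these shifts in the fall of Cplx2 and Napb was not tested.

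The second comparison asked where the members' transcripts lay, in control cultures first. Relative to the bulk of genes, Cplx2 and Vamp2 were the members most shifted towards processes, Stx1a, Vamp1 and Cplx1 followed, Nsf and Snap25 were lower there, and Napb did not pass the test. Cplx2 was 1.89 (SE 0.15) higher in processes on the log2 scale, or 3.70-fold. Vamp2 was 1.37 (SE 0.19) higher, or 2.59-fold. The process libraries of both genes all stood above every somata library, as did those of Stx1a and Vamp1. Stx1a was 0.96 (SE 0.19), Vamp1 0.73 (SE 0.14) and Cplx1 0.67 (SE 0.18) higher. Nsf was −0.61 (SE 0.14) and Snap25 −0.37 (SE 0.13) against somata. Adjusted p-values of these 7 ranged from 3.8e-06 to 0.0375 in edgeR. Napb differed by −0.02 (95% interval −0.28 to 0.24).

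So 5 members were higher in processes, where 25.8% of all tested genes were, and 2 were lower, where 21.9% were. With the replicate block the counts were again 5 and 2, against 29.8% and 28% of all genes. The median of the members was 0.70, against −0.05 for all tested genes. Leaving out single libraries ended the calls of Snap25 (somata control replicate 1 or processes control replicate 2), Nsf (somata control replicate 1) and Cplx1 (somata control replicate 2 or processes control replicate 1), with edgeR adjusted p-values from 0.0531 to 0.203. Upper quartile scaling also ended that of Cplx1 (0.46, adjusted p = 0.0538).

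The level in processes rests on how the libraries are scaled. With the library size alone, mitochondrial rRNA included, the median of all genes moved from −0.05 to −1.86, and Stx1a (−0.87), Vamp1 (−1.09), Vamp2 (−0.45) and Cplx1 (−1.16) turned to lower in processes, while Cplx2 stood at 0.07. With the counts outside the mitochondrial genome as library size the median was −0.51, Vamp2 and Cplx2 remained higher at 0.91 and 1.43, Vamp1 (0.27) and Cplx1 (0.20) lost their calls and Napb became lower (−0.48). The split of all genes, 3688 higher and 3135 lower with TMM, was 2750 and 4704 with upper quartile scaling, 1935 and 7057 with the counts outside the mitochondrial genome and 191 and 13271 with the library size alone. Measured from the median gene of each scaling, Cplx2 was shifted by 1.94 with TMM, 1.94 with the counts outside the mitochondrial genome and 1.93 with the library size alone. Vamp2 was shifted by 1.42, 1.42 and 1.41, and the order of the 8 members was the same under all 5 scalings.

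**Figure D3:**
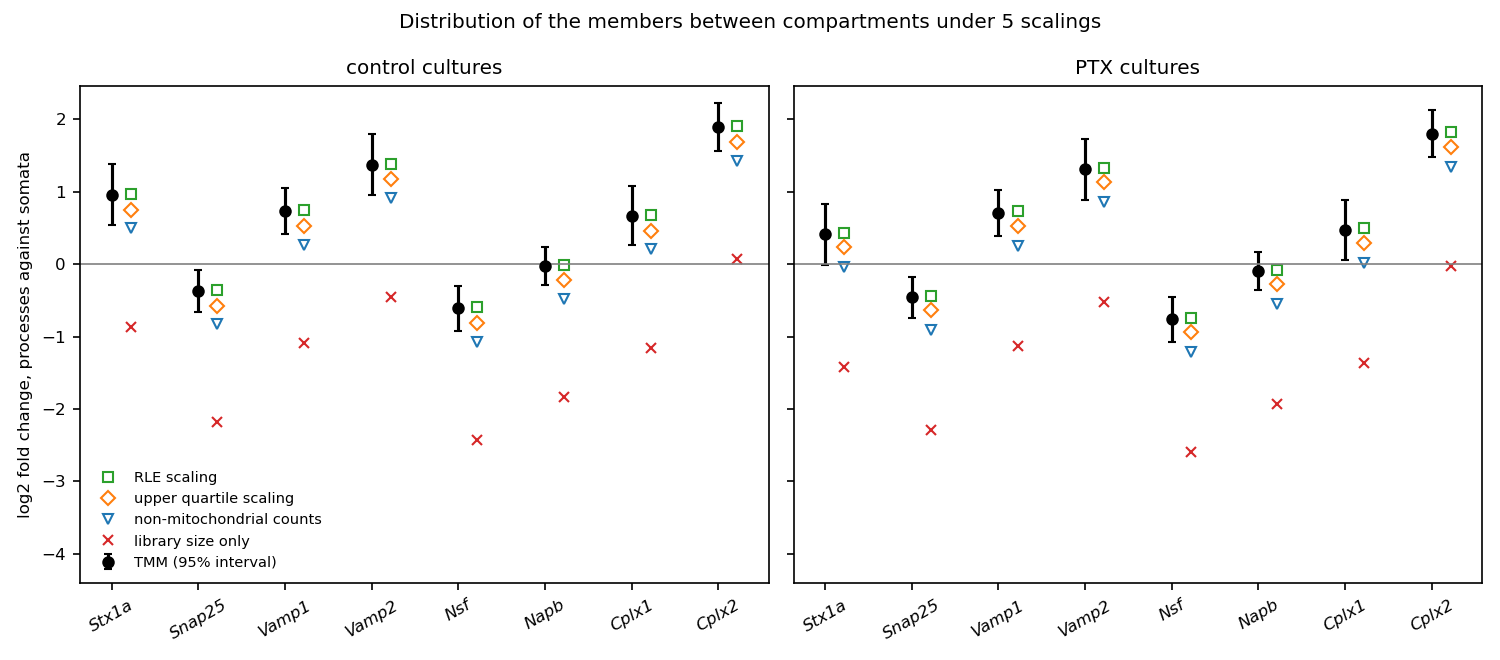
Log2 fold change of each member in processes against somata, in control and in PTX cultures, for TMM with 95% intervals and for 4 other scalings. All members shift together by scaling, and Cplx2 keeps the uppermost position, at 1.89 with TMM and 0.07 with library size alone in control.

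In PTX cultures the order was the same at the top. Cplx2 was 1.80 (SE 0.15), Vamp2 1.31 (SE 0.19) and Vamp1 0.71 (SE 0.14) higher in processes, and Nsf was −0.76 (SE 0.14) and Snap25 −0.46 (SE 0.13). Stx1a at 0.41 (95% interval −0.01 to 0.83) and Cplx1 at 0.47 (0.06 to 0.88) did not pass, with adjusted p-values of 0.0966 and 0.0543 in edgeR. With the replicate block the adjusted p-values of these were 0.00117 and 0.000175, and without a filter 0.0141 and 0.00321. Cplx1 also passed with the likelihood ratio test (0.0352), DESeq2 (0.0281), RLE scaling (0.0464) and a fit to the 4 PTX libraries alone (0.0313). Thus 3 members were higher in processes, against 25.7% of all genes, and 2 were lower, against 24%, or 5 and 2 with the block, against 30% and 29.6%. The call of Snap25 ended without somata PTX replicate 1 or processes PTX replicate 2. Library size alone again turned Stx1a (−1.43), Vamp1 (−1.12), Vamp2 (−0.52) and Cplx1 (−1.36) to lower.

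Whether PTX acted differently in the compartments was tested by the interaction, which subtracts the effect seen in somata from the effect seen in processes. No member passed, nor did any of the 14309 genes (0%), where 572 genes had an unadjusted p under 0.05 and none of the members did. The likelihood ratio test and DESeq2 each called 4 genes and the replicate block 15 (0.105%), no member among them. Stx1a had the widest difference, −0.55 (95% interval −1.14 to 0.05, unadjusted p = 0.0671 and adjusted p = 1 in edgeR), and with the block its adjusted p was 0.149. The smallest was that of Vamp1, −0.02 (−0.47 to 0.42), and for Cplx2 the interval was −0.54 to 0.36.

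Ratios of paralogues within a library do not depend on its scaling, and the read counts are given for 3 pairs. For each Cplx2 read there were 0.244 and 0.203 Cplx1 reads in somata control libraries, 0.339 and 0.284 in somata PTX, 0.0983 and 0.0923 in processes control and 0.132 and 0.115 in processes PTX. The share of Cplx1 was thus lower in every process library than in every somata library, and higher with PTX than in control within each compartment without overlap. On the log2 scale the ratio shifted by 0.43 with PTX (0.48 in somata and 0.37 in processes) and by −1.28 from somata to processes. In an exact two-sided permutation test within strata, both had p = 0.0556, the smallest its 36 arrangements allow, so that 0.05 could not be reached. Adjusted over the 4 pairs computed they were 0.222 and 0.0741. The ratio of Vamp1 to Vamp2 was 0.192 to 0.235 in somata and 0.134 to 0.154 in processes, a shift of −0.62 (exact permutation p = 0.0556), and the PTX shift of −0.09 had p = 0.333. Napb to Napa, its more widely expressed homologue, was 1.39 to 1.91 in somata but 1.90 to 2.59 in processes, a shift of 0.53 (exact permutation p = 0.0556), and it shifted by −0.27 with PTX (p = 0.111). Snap23, the paralogue of Snap25, was not analysed here. Reads shared by similar paralogues may have been assigned to either.

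**Figure D4:**
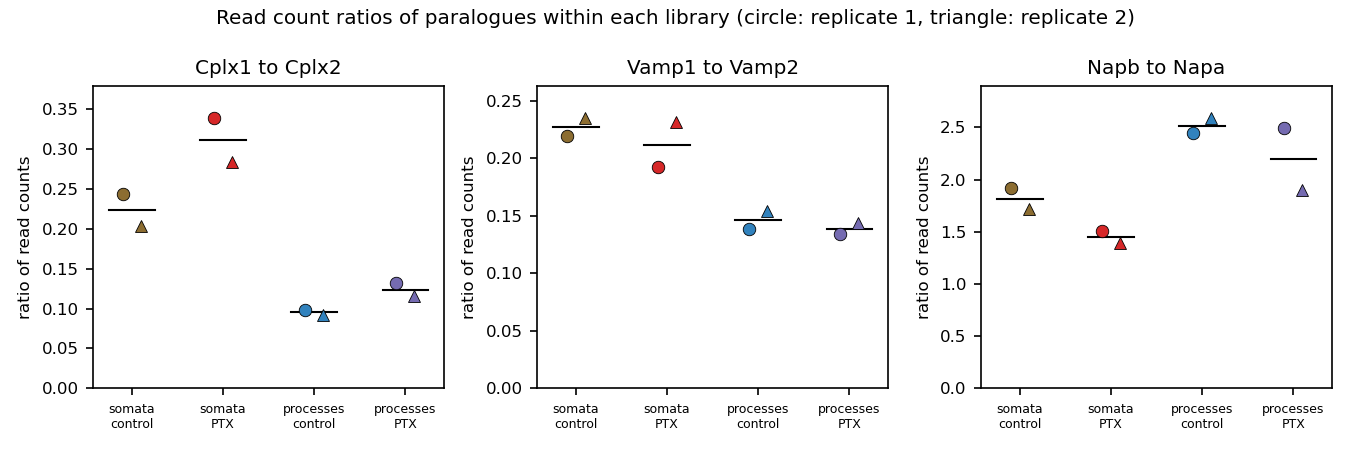
Ratio of the read counts of 3 paralogue pairs in each of the 8 libraries (linear axes from 0; circles replicate 1, triangles replicate 2, bars the mean of a condition). Cplx1 to Cplx2 lies at 0.203 to 0.339 in somata and 0.0923 to 0.132 in processes and is higher with PTX in both.

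The profile of 7 members over the 8 libraries was compared with those of 10207 genes that averaged 5 CPM or more, by the root mean square difference of log2 CPM centred on each gene's mean. Snap25 lay closest to Atp6v1a (0.0584), Vamp1 to Klc1 (0.0567), Vamp2 to Parp6 (0.0613), Nsf to Ezh1 (0.0622), Napb to Snap91 (0.0672), Cplx1 to Zfp444 (0.0665) and Cplx2 to Slc25a23 (0.0511). Among the members themselves the closest pairs were Vamp1 with Cplx1 (0.140) and Snap25 with Nsf (0.144). Many other genes lay closer: of the 10207, Cplx1 ranked 184 by closeness to Vamp1, and Vamp1 ranked 61 by closeness to Cplx1. Nsf ranked 443 by closeness to Snap25, and Snap25 ranked 179 by closeness to Nsf. Cplx2 was farthest from the rest, at 0.424 from its closest member, Vamp2. The nearest gene of Cplx1 changed when the prior count was 0.5 instead of 2.

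Other genes of the pathway were followed as lists. The list of other SNARE genes held 36 symbols, of which 32 were in the count table and 30 were tested. With PTX none rose in any of the comparisons, and Stx6, a syntaxin of the trans-Golgi network and endosomes, was the one that fell, in processes and in the average, against 2.1% and 5% of all tested genes. Stx6 was at 100.9 and 92.5 CPM in processes control and at 69.7 and 68.0 CPM in processes PTX, a change of −0.49 (SE 0.10, adjusted p = 0.0296 in edgeR), and at 54.2 and 52.4 against 52.8 and 49.0 CPM in somata. Its average was −0.28 (edgeR adjusted p = 0.0359), which missed the threshold with DESeq2 (adjusted p = 0.0577) and with the library size alone (0.166). The call in processes was lost with the library size alone (edgeR adjusted p = 0.0921) and in a fit to the 4 process libraries (0.116). The median of the 30 was 0.08 in somata, −0.05 in processes and 0.04 in the average. With the block, 1 rose and 1 fell in somata (Vamp4 and Stx7), where 7.21% and 6.79% of all genes did. In processes 2 fell (Stx6 and Vamp7), against 6.09% of all genes, and in the average 1 rose and 4 fell, against 10.1% and 10.9%. The SNAP paralogues Napa and Napg did not pass with PTX (−0.12 and 0.17 in the average), and both were lower in processes of control cultures (−0.49 and −0.50). Cplx3 and Cplx4, complexins known from the retina, were below the filter.

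The list of 22 symbols of genes that assemble or regulate the complex, of which 20 were tested, held changes in both directions. Unc13a and Unc13b encode Munc13 proteins, which prime vesicles by opening syntaxin, and both rose in the average. Unc13b was at 26.4 and 24.0 CPM in somata control and at 44.8 and 40.6 CPM with PTX, a change of 0.76 (SE 0.11, adjusted p = 0.00425 in edgeR). In processes it was at 23.1 and 24.4 CPM against 28.7 and 28.9 CPM, 0.28 (SE 0.12), which did not pass. Unc13a was at 57.3 and 54.8 CPM against 77.1 and 75.7 CPM in somata and at 91.1 and 73.0 against 116.5 and 102.9 CPM in processes, an average of 0.43 (SE 0.09, adjusted p = 0.0109 in edgeR).

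Lower in the average were Doc2b (−1.31, SE 0.29) and Doc2g (−1.52, SE 0.33), of the family of Doc2 calcium sensors, Prrt2 (−1.07, SE 0.26), a presynaptic protein that binds SNAP-25, and Snph (−0.44, SE 0.12), syntaphilin, known for anchoring mitochondria in axons. Their adjusted p-values were 0.0149 to 0.0380 in edgeR, and none passed in a single compartment. Doc2b and Doc2g were scarce, with 13 to 79 and 4 to 32 reads per library. Thus 1 of the 20 rose in somata, against 2.09% of all tested genes, and none passed the test in processes. In the average 2 rose and 4 fell, against 5% and 5% of all tested genes, and the median was −0.04. With the block, 2 rose and 4 fell in somata (7.21% and 6.79% of all genes) and 1 rose and 4 fell in processes (5.1% and 6.09%). In the average with the block 2 rose and 6 fell (10.1% and 10.9% of all genes). When each of the 8 libraries was left out in turn, the averaged call was lost 7 times for Stx6, 3 times for Doc2b, 4 times each for Doc2g and Prrt2, 6 times for Snph and never for Unc13a or Unc13b. The call of Unc13b in somata ended without somata control replicate 2 or somata PTX replicate 1, and that of Stx6 in processes without 5 of the 8.

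**Figure D5:**
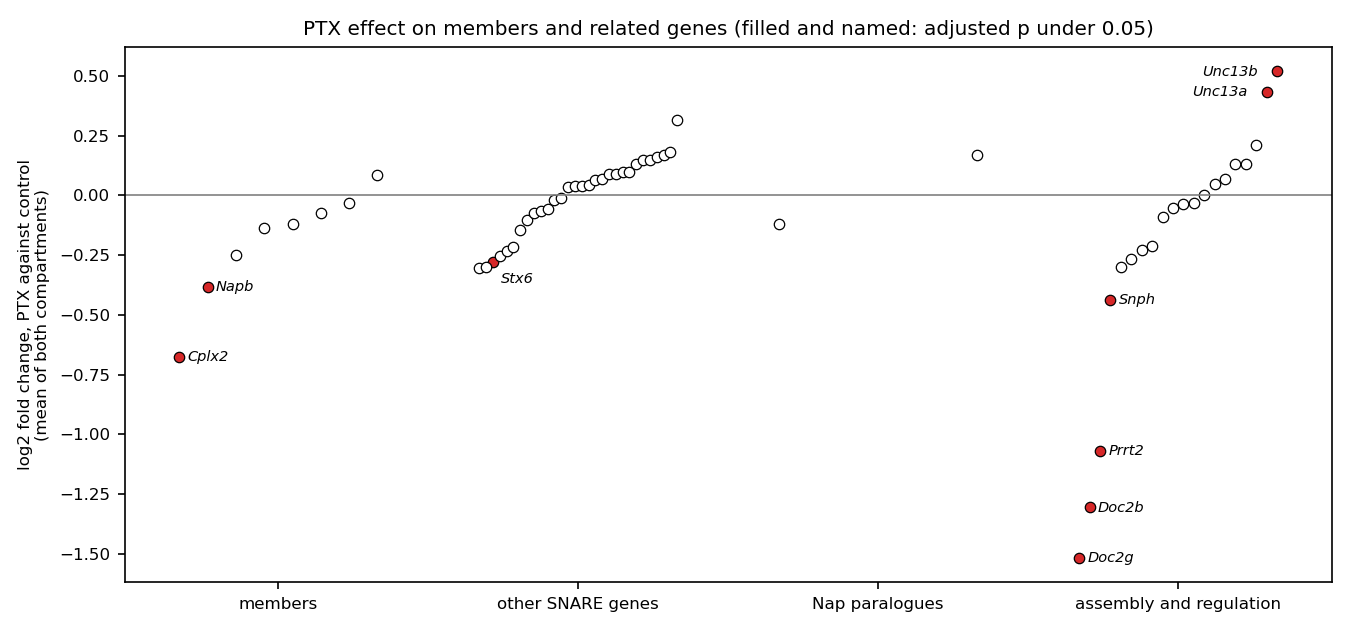
Log2 fold change with PTX, averaged over compartments, of the 8 members, 30 other SNARE genes, the 2 Nap paralogues tested and 20 genes of assembly and regulation, sorted within each set. Filled and named points have an edgeR adjusted p under 0.05, from Doc2g at −1.52 to Unc13b at 0.52.

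Between compartments of control cultures, 15 of the 30 other SNARE genes were higher in processes and 4 lower, against 25.8% and 21.9% of all tested genes, with a median of 0.30. The most positive were Vamp8 (1.87) and Vamp3 (1.23), VAMPs of endosomal and constitutive traffic, and Bet1 (1.16), a SNARE between endoplasmic reticulum and Golgi. The most negative were Stx5 (−0.67), a Golgi syntaxin, Stx3 (−0.60) and Stx16 (−0.57). Of the 20 regulatory genes 8 were higher and 3 lower, against the same shares. Unc13c (2.90), Snph (2.54) and Dnajc5 (1.75), the cysteine string protein that chaperones SNAP-25, were the most positive, and Prrt2 (−1.01), Stxbp5 (−0.94), tomosyn, and Hspa8 (−0.52) the most negative. In PTX cultures 15 and 6 of the SNARE genes and 8 and 5 of the regulatory genes were called in these directions, against 25.7% and 24% of all tested genes, led by Vamp3 (1.33) and Unc13c (3.32) on the higher side and by Stx5 (−0.88) and Doc2a (−1.39) on the lower. With the library size alone, none of the 30 SNARE genes and 2 of the regulatory genes were higher in processes of control cultures. Lower were 29 and 17, where 191 of the 14309 tested genes were higher and 13271 lower. With the counts outside the mitochondrial genome, 6 of each list were higher, and 11 SNARE and 8 regulatory genes were lower. Of all tested genes, 1935 were then higher and 7057 lower.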

How the data were processed

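Ribosome-depleted RNA of somata and processes was sequenced from control and PTX cultures, with 2 libraries per condition. The authors trimmed and aligned the reads to the rat genome (Rnor 6.0) and counted them with featureCounts. The aligner is Subread in the study's methods and STAR in the submitters' processing notes. The deposited counts are whole numbers, summed by the authors to gene symbols without normalization. The authors' own comparison tables, with log2 fold changes and p-values, were not used.

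The filter kept a gene whose count exceeded 20 in 2 or more libraries. TMM factors (0.486 to 0.570 in processes, 1.81 to 1.93 in somata) and quasi-likelihood tests came from edgeR 4.0.16 in R 4.3.3, with 1 coefficient per condition over all 8 libraries and Benjamini-Hochberg adjustment over all tested genes (threshold 0.05), where the study used the likelihood ratio test. Processes had fewer nuclear counts and so lower precision. Replicates of a condition differed beyond counting noise (chi-square per degree of freedom 9.11 to 21.7). DESeq2 1.42.0, other scalings and filters, a replicate block and leaving out each library were alternatives; for list genes these were added after their values were seen. Same-numbered libraries deviated together (r = 0.54 between the somata conditions, 0.27 to 0.37 for the other 5 pairs of conditions), and the numbers come from the labels, which do not say what they mark. The PTX tests in single compartments were also run on simulated counts, drawn independently for each library. Those counts lacked the shared deviation of same-numbered libraries, so the run cannot show how the tests behave with it.

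The members and lists were chosen with earlier results of these data known. Named were all members, list genes past the threshold with PTX, the 3 most positive and 3 most negative list genes between compartments, paralogues, and each member's nearest gene. The symbols Stx10, Stx19, Snap23, Sec20 and Amisyn were not matched in the count table. Of these, Stx10, Stx19 and Snap23 were not analysed here. Sec20 and Amisyn are other names of Bnip1 and Stxbp6, which the lists also hold. Stx11, Vamp5, Cplx3, Cplx4 and Unc13d were below the filter. Summed marker levels of the other lists were 272 to 648 CPM for 9 oligodendrocyte lineage genes, 34.5 to 125 CPM for 6 fibroblast and vascular genes and 5.43 to 20.2 CPM for Snhg11, the 1 nuclear RNA matched. Results that need 1 further gene, including 1 paralogue ratio, are not reported here. Promoter sequences are from RefSeq (GRCr8).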

Additional observations from a re-analysis of the deposited data

How the results depend on the processing

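The replicate block called 3 members with PTX in somata in place of 1, 3 in processes in place of 1, and 3 in the average in place of 2; apart from the calls of Stx1a, Napb and Cplx1 given above it changed no other call of a member. The likelihood ratio test called 2 in processes, and the fit to the 4 process libraries alone called 0. Leaving out 1 library in turn gave 0 to 1 members called in somata, 0 to 1 in processes and 1 to 2 in the average. The count over all genes in somata, 513, ranged from 117 to 568 without 1 library, and was 972 with the likelihood ratio test and 1141 without a filter; in processes, 535, it ranged from 97 to 478 and was 949 and 1129, and 298 with only the libraries compared; in the average, 1431, it ranged from 848 to 1231, with 3009 under the block and 2153 without a filter. The calls of Cplx2 and Napb in the average kept their direction under every alternative run, and their threshold except where a library was left out for Napb.

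Signs turned with a change of scaling or without 1 library, in the latter case for values that had not passed the test. With library size alone, the PTX value was 0.037 for Snap25 and 0.0063 for Nsf in somata and 0.031 for Vamp2 in the average; with upper quartile scaling it was −0.021 for Vamp2 in somata, and the interaction of Vamp1 was 0.0039. Between compartments, library size alone gave −0.87 (control) and −1.43 (PTX) for Stx1a, −1.09 and −1.12 for Vamp1, −0.45 and −0.52 for Vamp2, −1.16 and −1.36 for Cplx1, and −0.032 for Cplx2 in PTX, and counts outside the mitochondrial genome gave −0.046 for Stx1a in PTX. By construction the library size alone puts the mitochondrial share of a library into every gene.

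Without 1 library in turn, the PTX value in somata ran from −0.12 to 0.049 for Snap25, −0.15 to 0.15 for Vamp2 and −0.22 to 0.10 for Nsf. In processes it ran from −0.43 to 0.10 for Stx1a, −0.26 to 0.0064 for Snap25, −0.31 to 0.076 for Vamp1 and −0.31 to 0.23 for Vamp2, and in the average from −0.038 to 0.23 for Stx1a and −0.16 to 0.12 for Vamp2. Napb between compartments ran from −0.059 to 0.014 in control and −0.22 to 0.024 in PTX. The interaction ran from −0.20 to 0.18 for Vamp1, −0.20 to 0.046 for Napb and −0.28 to 0.13 for Cplx2. A condition left with 1 library was assumed to vary like the others. Beyond these constructions the cause was not tested. With 2 libraries per condition, the 95% intervals of single members with PTX in 1 compartment spanned changes that the test could not call.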

Other observations

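Levels of the members were higher in replicate 1 than in replicate 2 in 31 of 32 comparisons of 1 member in 1 condition. The exception was in somata PTX, where 7 of 8 were higher. The median member differed by 0.22 (somata control), 0.19 (somata PTX), 0.40 (processes control) and 0.26 (processes PTX) on the log2 CPM scale, where the median of all tested genes differed by 0.00, 0.02, 0.01 and 0.01, and replicate 1 was higher for 49.9% to 53.0% of all tested genes. Each condition held 1 library of each replicate number, so the replicate block left the members' values nearly unchanged. It takes this difference out of the spread between libraries, and the common dispersion fell from 0.0132 to 0.00459 with it. What the replicate number stands for is not given in the sources used here.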
